A study of Mus musculus with 10 samples.

Results

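The Igkv8 family is a group of variable (V) segments of the mouse immunoglobulin kappa light chain locus (Igk). Its 8 members Igkv8-18, Igkv8-19, Igkv8-21, Igkv8-24, Igkv8-27, Igkv8-28, Igkv8-30 and Igkv8-34 (IGKV8-18, IGKV8-19, IGKV8-21, IGKV8-24, IGKV8-27, IGKV8-28, IGKV8-30 and IGKV8-34 in the deposited table) were chosen by name, with alleles merged. The table also counts Igkv8-16 (9380 counts) and Igkv8-26 (37 counts) of the same family, which are not among them. They are 8 of the 114 V segments counted in the repertoire, and they held 21347 of its 161780 counts. The repertoire came from small pre-B cells sorted from the bone marrow of C57Bl6 mice aged 6 to 12 weeks, in 5 samples labelled WT and 5 labelled rsCBE. The labels do not spell out rsCBE, which the design text precedes with a delta, and no other allele or treatment is named for either group. The labels do not say whether a sample is 1 mouse or a pool, so p-values measure the spread between these samples. The table lists Igk joints only, so the cell type was not checked against other markers.

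In pre-B cells the RAG recombinase joins 1 V segment to 1 of the joining (J) segments, and the joint forms the third complementarity-determining region (CDR3), the most variable loop of the light chain. A V segment that lies in the same orientation as the J segments joins by deletion of the DNA between them, and a segment in the opposite orientation joins by inversion. After a first joint, an allele can rearrange again by joining an upstream V segment to a more distal J segment, which removes or displaces the first joint. J1 lies closest to the V segments and J5 farthest from them, and J3 is known as a nonfunctional segment that is seldom used.

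All 8 segments are annotated as immunoglobulin V genes with 2 exons in GENCODE M21, on chromosome 6 of GRCm38, the same build as mm10. Igkv8-18 spans 70355852 to 70356445 on the forward strand, the strand of the J segments, so it joins by deletion. The other 7 lie on the reverse strand and join by inversion. Igkv8-19 spans 70340876 to 70341453, Igkv8-21 spans 70314895 to 70315472 and Igkv8-24 spans 70216858 to 70217421. Igkv8-27 spans 70171809 to 70172270, Igkv8-28 spans 70143593 to 70144166, Igkv8-30 spans 70117061 to 70117620 and Igkv8-34 spans 70044112 to 70044678. Their distance to J1 ran from 366.1 kb for Igkv8-18 to 677.9 kb for Igkv8-34. The V exons were 81.6 to 97.8% identical among the 8 segments, with a median of 87.3% over 28 pairs, and 76.6 to 81.0% identical to Igkv8-16. Igkv8-19 and Igkv8-28 were the closest pair, with 7 mismatches in 316 bases. How reads that match several such segments were assigned is not given in the sources used here, so the split between close members is uncertain.

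The 3' ends of the V exons are shown because they set the length and the letters of the joints described further on. Each is the last 60 bases of the V exon, 5' to 3' on the strand of the gene, with the part that enters the CDR3 in capitals.
Igkv8-18: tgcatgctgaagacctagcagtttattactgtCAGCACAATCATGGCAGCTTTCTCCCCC
Igkv8-19: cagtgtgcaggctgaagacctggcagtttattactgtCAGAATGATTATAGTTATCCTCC
Igkv8-21: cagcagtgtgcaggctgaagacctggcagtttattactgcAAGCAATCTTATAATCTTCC
Igkv8-24: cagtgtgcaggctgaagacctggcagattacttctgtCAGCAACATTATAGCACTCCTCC
Igkv8-27: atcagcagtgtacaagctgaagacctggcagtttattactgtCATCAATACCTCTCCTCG
Igkv8-28: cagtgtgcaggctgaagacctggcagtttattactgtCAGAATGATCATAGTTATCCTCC
Igkv8-30: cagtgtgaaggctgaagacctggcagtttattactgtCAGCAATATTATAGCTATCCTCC
Igkv8-34: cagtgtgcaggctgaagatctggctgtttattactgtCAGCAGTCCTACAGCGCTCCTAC
The germline part of the CDR3 was 28 bases long in Igkv8-18, 23 in Igkv8-19, Igkv8-24, Igkv8-28, Igkv8-30 and Igkv8-34, 20 in Igkv8-21 and 18 in Igkv8-27.

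The J segments that took nearly all counts are shown for the same reason, with their CDR3 part in capitals.
J1: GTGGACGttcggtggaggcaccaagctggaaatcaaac
J2: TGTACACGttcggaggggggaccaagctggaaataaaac
J4: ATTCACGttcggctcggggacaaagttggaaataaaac
J5: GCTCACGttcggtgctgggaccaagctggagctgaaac

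Total counts per sample were 22765, 21392, 13817, 3109 and 9161 in WT replicates 1 to 5 and 24083, 23301, 18263, 14233 and 11656 in rsCBE replicates 1 to 5. Replicates 1 and 2 of each genotype were deposited as 1 library each, and replicates 3 to 5 as parts a and b, which were added. They are called 1-library and 2-part samples here, a division taken from the table and not a batch that the labels name. More V segments differed with it than with the genotype. With the genotype in the model, 57 of 100 V segments (57%) differed between the forms in edgeR's quasi-likelihood test (adjusted p under 0.05). Among the 8 members, 3 were higher in the 2-part samples, with log2 differences of 0.82 for Igkv8-18, 0.46 for Igkv8-21 and 1.14 for Igkv8-34. Igkv8-27, at -0.29, and Igkv8-30, at -0.54, were lower there. Which members passed depended on the way of counting. With each clonotype (a combination of V, J and CDR3) counted once, Igkv8-24 (-0.29), Igkv8-28 (-0.63) and Igkv8-30 (-0.37) passed, and the differences of Igkv8-18, Igkv8-21, Igkv8-27 and Igkv8-34 were 0.37, 0.22, -0.12 and 0.40 and did not pass. The summed share of the 8 members was nearly the same in both forms, 13.1% ± 1.86 (SD, n = 4) and 13% ± 1.45 (SD, n = 6), whereas Igkv8-16 took 2.38% ± 0.347 and 9.98% ± 1.14. WT replicate 4, with 23 to 82 counts per member, is the shallowest sample.

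The 8 segments together had the higher share of the repertoire in rsCBE. In bulk counts, more cells that use a segment and more transcript per cell cannot be told apart. Their summed share was 10.6, 13, 11.1, 12.7 and 11.7% of counts in WT replicates 1 to 5 and 14.3, 14.7, 14.6, 14.6 and 13.1% in rsCBE replicates 1 to 5. All rsCBE samples lay above all WT samples, although rsCBE replicate 5 at 13.1% stood close to WT replicate 2 at 13%. The means were 11.8% ± 1.04 and 14.3% ± 0.644 (5 samples each, ± SD), a difference of 2.44 percentage points. The difference was 2.69 points in the 1-library and 2.28 points in the 2-part samples. No p is given for this sum, because the members were chosen with results of these data known. When each clonotype was counted once, the difference was 1.27 points and the groups overlapped. Without clonotypes of 1 count the difference was 2.57 points, and the groups again overlapped, with a highest WT value of 13.6% and a lowest rsCBE value of 13.2%.

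**Figure D1:**
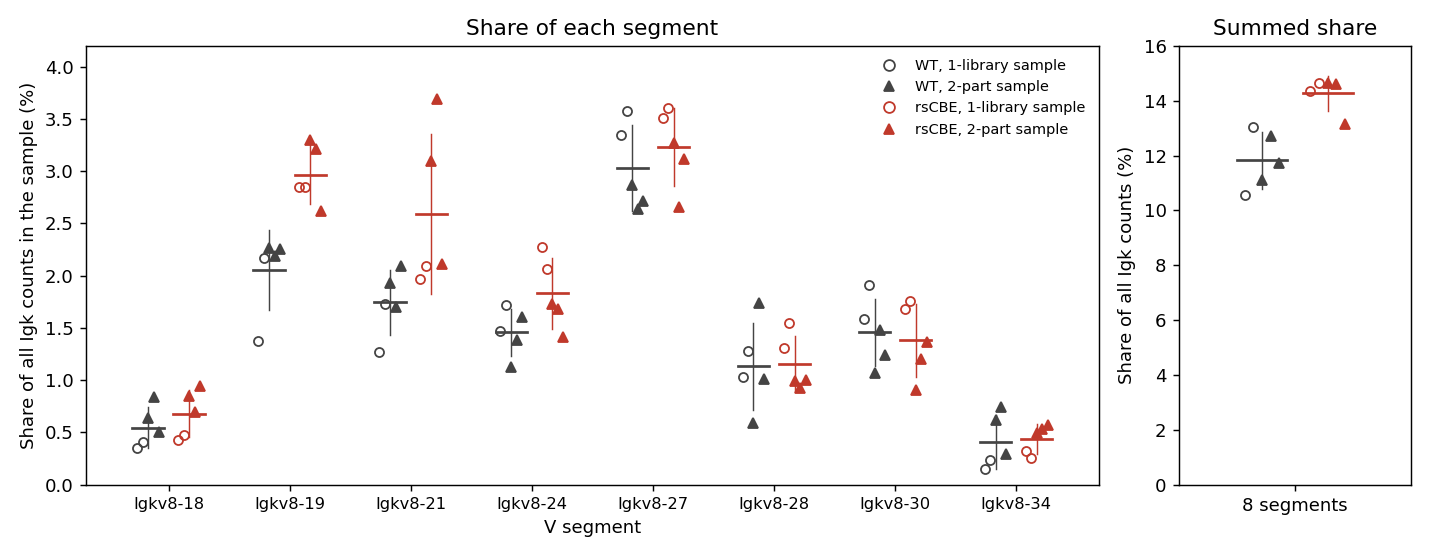
Share of all Igk counts (%) taken by each segment (left) and by the 8 segments together (right). Each point is 1 sample, open circles are 1-library and filled triangles 2-part samples, and bars give the mean and SD of 5 samples. Igkv8-19 and the sum are the ones in which every rsCBE sample lies above every WT sample.

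The members differed widely in use. Igkv8-27 was the most used, with the sixth highest mean share of the 114 V segments, and led the 8 members in 8 of 10 samples. In WT it took 3.35, 3.58, 2.87, 2.64 and 2.72% of counts and in rsCBE 3.51, 3.60, 3.27, 2.66 and 3.11%. These ranges nearly coincide, and the samples with over 3.3% were the 1-library samples of either genotype. Igkv8-19 ranked 8, Igkv8-21 ranked 12, Igkv8-24 ranked 20, Igkv8-30 ranked 23, Igkv8-28 ranked 32, Igkv8-18 ranked 51 and Igkv8-34 ranked 63 by mean share. Neighbours in this order could overlap. Igkv8-24 and Igkv8-30, with mean shares of 1.64 and 1.42% over the 10 samples, took 1.46% ± 0.227 and 1.46% ± 0.323 in WT. In rsCBE they took 1.83% ± 0.337 and 1.38% ± 0.350 (5 samples each, ± SD).

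Igkv8-19 was the member that differed most clearly between the genotypes. Its share was 1.37, 2.17, 2.27, 2.19 and 2.26% in WT and 2.85, 2.85, 3.30, 3.21 and 2.62% in rsCBE, so the groups did not overlap. The same held for 3 of the 98 V segments tested (3.06%). The log2 fold change was 0.54 ± 0.19 (SE), and edgeR gave an unadjusted p of 0.0140 and an adjusted p of 0.509. With the library form as a term the estimate was again 0.54 and the adjusted p was 0.0320, while the replicate number as a block gave 0.0663. In the 1-library and the 2-part samples alone the log2 fold changes were 0.69 and 0.44.

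Igkv8-21 took 1.27, 1.73, 1.93, 1.70 and 2.10% in WT and 1.96, 2.09, 3.09, 3.70 and 2.11% in rsCBE. The groups overlapped, and rsCBE replicates 3 and 4 stood above the other 8 samples. The log2 fold change was 0.57 ± 0.23 (SE, unadjusted p 0.0275, adjusted p 0.509 by edgeR). Much of the excess in those samples sat in single clonotypes. In rsCBE replicate 4, 1 in-frame J2 joint, aagcaatcttataatcttatgtacacg, held 239 of 526 counts (45.4%) and was found in both parts of the sample. It had 0 to 4 counts in each other sample. In rsCBE replicate 3, 1 J1 joint held 172 of 565 counts (30.4%). Without the largest clonotype of each sample, Igkv8-21 took 1.43% ± 0.284 in WT and 1.89% ± 0.228 in rsCBE (5 samples each, ± SD), and the groups still overlapped. Igkv8-19 treated in the same way took 1.63% ± 0.298 and 2.46% ± 0.219 (5 samples each, ± SD) without overlap.

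The other members varied as much within a genotype as between them. Igkv8-24 took 1.12 to 1.72% in WT and 1.42 to 2.27% in rsCBE, with a log2 fold change of 0.33 ± 0.19 (SE). Igkv8-18 took 0.347 to 0.836% and 0.428 to 0.944% (log2 fold change 0.34). The log2 fold changes of Igkv8-34, Igkv8-27 and Igkv8-28 were 0.16, 0.09 and 0.05, and that of Igkv8-30, the member with a lower mean in rsCBE, was -0.08. Leaving out single samples moved that of Igkv8-18 between 0.20 and 0.52 and that of Igkv8-27 between 0.05 and 0.16, and those of Igkv8-28, Igkv8-30 and Igkv8-34 changed sign. In all, 7 of 8 members had a positive log2 fold change, with a median of 0.24, against 44 of 98 and a median of -0.05 over all V segments tested. An adjusted p under 0.05 was reached by 0 of 98 V segments (0%) in edgeR and by 0 in DESeq2. An unadjusted p under 0.05 in edgeR was reached by 7, of which 5 (5.1%) were higher in rsCBE, Igkv8-19 and Igkv8-21 among them. V segments of other families numbered 17 to 34 were read beside them. Of 7 listed and 6 tested, 0 had a higher estimate and 6 a lower one, with a median log2 fold change of -0.05 and 0 past the threshold. Those with the smallest p were Igkv6-32 (-0.26, adjusted p 0.973 by edgeR) and Igkv6-20 (-0.11, adjusted p 0.992 by edgeR).

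Across the 10 samples, the log2 share of other V segments was compared with the summed share of the members. The most similar of 79 were Igkv4-51 (Pearson r 0.85), Igkv4-73 (0.73) and Igkv12-40 (0.67). These are descriptions, since shares of 1 library sum to a fixed total.

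J partners differed between members in both genotypes. Igkv8-19 and Igkv8-28, the closest pair in sequence, rarely used J1. J1 made up 3.53, 6.67, 5.43, 19.1 and 1.93% of Igkv8-19 counts in WT and 3.06, 3.31, 3.98, 5.03 and 2.30% in rsCBE. It made up 5.11, 4.74, 0, 0 and 5.38% of Igkv8-28 counts in WT and 2.54, 1.66, 2.76, 3.79 and 0% in rsCBE. The 0 values rest on 82, 54 and 117 counts, which allow a share of up to 3.66, 5.56 and 2.56%. Among the 51 V segments with at least 20 counts in every sample, Igkv8-28 had the third lowest mean J1 share in WT and Igkv8-19 the seventh, and in rsCBE they were the fifth and sixth lowest. Igkv8-18 was also low, with 10.6% ± 4.63 in WT and 6.41% ± 3.55 in rsCBE (5 samples each, ± SD). Igkv8-21 had the highest mean J1 share among the members, with 35.8% ± 10.1 and 26.2% ± 9.93 (5 samples each, ± SD). In rsCBE that rank rests on replicate 3 at 43.0%, which holds the J1 joint with 172 counts. The other rsCBE samples had 24.5, 22.2, 16.7 and 24.4%, and Igkv8-27 had a mean of 23.96%. In all V segments other than the 8 members the J1 share was 32.5% ± 2.25 and 25.8% ± 2.53. J3 held 7 counts of the 8 members in WT and 5 in rsCBE.

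**Figure D2:**
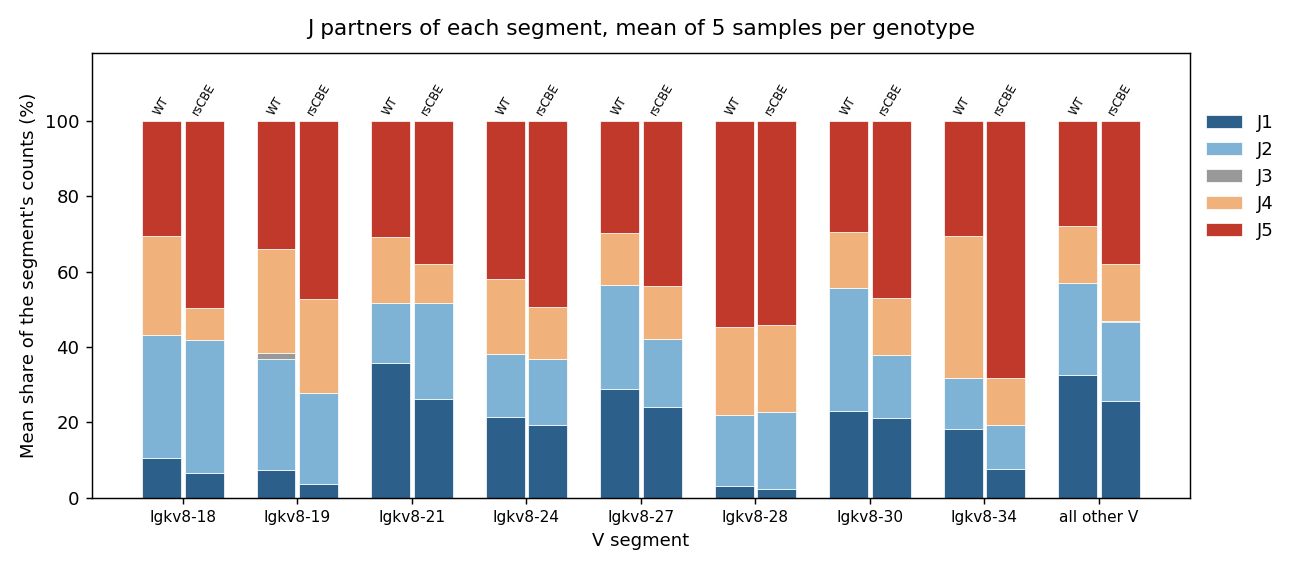
Mean share (%) of each segment's counts joined to J1, J2, J3, J4 or J5, as the mean of 5 samples per genotype, with all V segments other than the 8 members at the right. The J1 part is thin in Igkv8-19 (7.33% and 3.53%) and Igkv8-28 (3.05% and 2.15%), and the J5 part is larger in rsCBE in every member except Igkv8-28.

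Within the summed counts of the 8 members, J5 took 29.4, 29.7, 37.9, 39.2 and 36.2% of counts in WT and 45.2, 47.5, 46.2, 41.4 and 49.2% in rsCBE. All other V segments together ran from 23.2 to 34.2% and from 37.1 to 39.1%. In both sets the genotypes did not overlap. The members thus had the higher J5 share in each of the 10 samples, while the difference between genotypes was of similar size, 11.4 percentage points in the members and 10.2 in the rest. Whether the 2 differences differ was not tested.

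Igkv8-27 was the member whose J5 share passed the test. J5 joined 24.7, 28.3, 27, 32.9 and 36.1% of its counts in WT and 44.6, 43.3, 45.4, 40.7 and 45.7% in rsCBE. No sample of one genotype reached the range of the other. The log2 odds ratio of J5 against the other J segments was 0.89 ± 0.20 (SE, adjusted p 0.0323 by limma), and 2 of the 51 V segments tested passed (3.92%). The call was lost with the replicate number as a block (adjusted p 0.0808), with the library form as a term (0.0503) and in 7 of 10 fits that left out 1 sample, namely WT replicate 1 or 2 or any rsCBE replicate, with 0 V segments called in each. The exact permutation test gave the smallest p that 5 samples against 5 allow, 0.00794, which could not pass after adjustment over 51 segments with 8 of them at that value. Without WT replicate 4 its adjusted p by limma was 0.00788.

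Igkv8-34, the member farthest from J1 and the least used, showed the widest gap in J5. J5 joined 35.3, 51.0, 40, 0 and 25.9% of its counts in WT and 67.5, 60, 69.2, 77.6 and 67.2% in rsCBE. The genotypes did not overlap. WT replicate 4 held 0 J5 joints among 23 counts, which allows a share of up to 13.04%. The log2 odds ratio was 2.79 ± 0.90 (SE, adjusted p 0.0770 by limma), and without WT replicate 4 it was 1.82 with an adjusted p of 0.00555. In rsCBE its mean of 68.3% was the highest J5 share of the 51 V segments.

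Igkv8-18 and Igkv8-30 had similar gaps. J5 joined 40.5, 40.2, 30.7, 11.5 and 30.4% of Igkv8-18 counts in WT and 46.6, 45.9, 60, 53.5 and 41.8% in rsCBE, without overlap (log2 odds ratio 1.21 ± 0.41 SE, adjusted p 0.0770 by limma). For Igkv8-30 the values were 23.6, 22.5, 30.4, 47.8 and 23.7% in WT and 37.8, 45.2, 50.3, 51.5 and 50.3% in rsCBE. They overlapped through WT replicate 4 at 47.8%, which rests on 22 of 46 counts (Wilson 95% interval 34.1 to 61.9%). The log2 odds ratio of Igkv8-30 was 1.11 ± 0.33 (SE, adjusted p 0.0770 by limma) and 1.41 without that sample (adjusted p 0.00387 by limma).

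With all samples Igkv8-27 was the only member that passed, and the remaining 4 members had the highest adjusted p. The log2 odds ratio of J5 was 0.96 ± 0.51 in Igkv8-19, 0.45 ± 0.35 in Igkv8-24, 0.43 ± 0.39 in Igkv8-21 and -0.48 ± 1.05 in Igkv8-28 (SE, adjusted p 0.161, 0.311, 0.368 and 0.682 by limma). The estimate of Igkv8-28 rests on WT replicate 4, where J5 joined 53 of 54 counts (98.1%, Wilson 95% interval 90.2 to 99.7%), and without it the log2 odds ratio was 0.62 (adjusted p 0.195 by limma). WT replicate 4 also stood apart in Igkv8-19, where its J5 share was 8.82% and the remaining WT samples ran from 35.9 to 48.6%, and in Igkv8-24, where it was 60.5% and they ran from 29.2 to 48.4%. Without it the log2 odds ratio was 0.41 in Igkv8-19 (adjusted p 0.127 by limma) and 0.72 in Igkv8-24 (adjusted p 0.0494 by limma). Without WT replicate 2 that of Igkv8-24 was 0.25. In Igkv8-21 it was 0.75 without rsCBE replicate 4, 0.25 without WT replicate 1 and 0.28 without rsCBE replicate 5. Members that did not overlap in J5 were Igkv8-18, Igkv8-27 and Igkv8-34, 3 of 8, against 8 of all 51 V segments tested (15.7%). The median log2 odds ratio was 0.92 over the members and 0.71 over the 51. Without WT replicate 4, 30 of 74 V segments passed, 5 of them members (Igkv8-18, Igkv8-24, Igkv8-27, Igkv8-30 and Igkv8-34). The J5 difference was also fitted in each library form alone. A test of whether the genotype effect differs between the forms called 0 of 51 V segments by limma (1 unadjusted). In the 1-library samples alone 68 of 85 V segments passed by limma, among them 7 members with log2 odds ratios of 0.66 in Igkv8-19, 0.97 in Igkv8-28, 1.01 in Igkv8-24, 1.12 in Igkv8-27, 1.20 in Igkv8-34, 1.24 in Igkv8-30 and 1.30 in Igkv8-21. Igkv8-18, at 0.34, did not pass (adjusted p 0.138 by limma). In the 2-part samples alone 0 of 51 passed, and the log2 odds ratios were 3.84 in Igkv8-34, 1.79 in Igkv8-18, 1.15 in Igkv8-19, 1.03 in Igkv8-30, 0.74 in Igkv8-27, 0.07 in Igkv8-24, -0.16 in Igkv8-21 and -1.45 in Igkv8-28. With weights by counting error, chosen after seeing the data, 33 of 51 passed, 6 of them members, as Igkv8-19 was added to those 5.

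**Figure D3:**
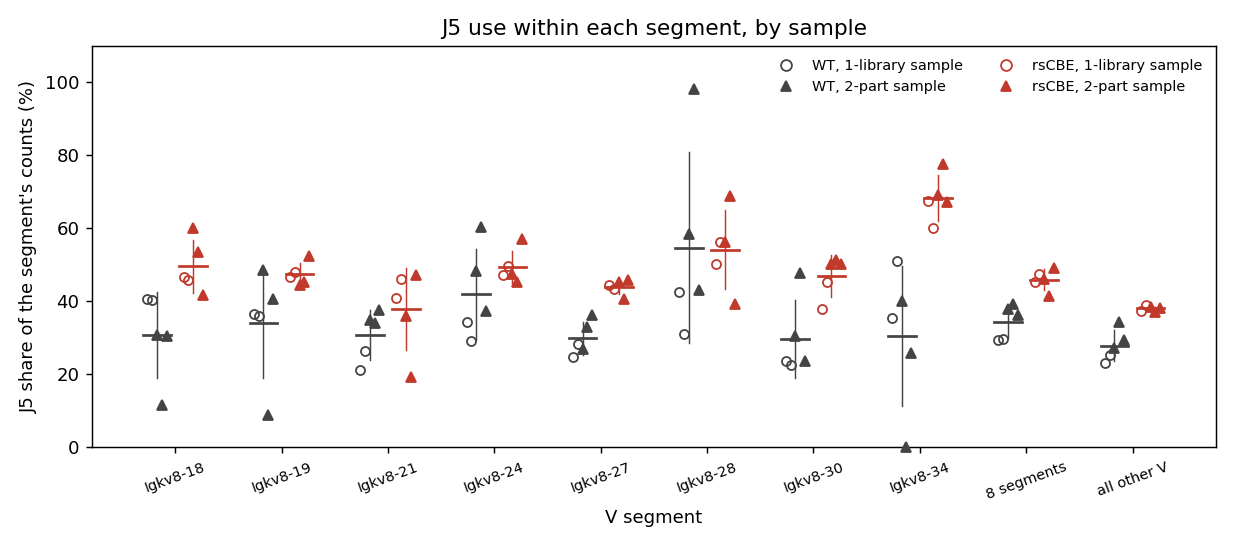
J5 share (%) of the counts of each segment, of the 8 segments together and of all other V segments. Each point is 1 sample, open circles are 1-library and filled triangles 2-part samples, and bars give the mean and SD of 5 samples. The rsCBE samples of Igkv8-27 lie between 40.7 and 45.7%, above all WT samples, and those of Igkv8-34 between 60 and 77.6%.

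J4 joints fell in Igkv8-34 and Igkv8-18. J4 joined 26.5, 35.3, 37.6, 56.5 and 33.3% of Igkv8-34 counts in WT and 11.7, 13.3, 13.2, 6.58 and 17.9% in rsCBE. It joined 17.7, 19.5, 33, 34.6 and 26.1% of Igkv8-18 counts in WT and 13.6, 8.11, 1.94, 7.07 and 11.8% in rsCBE. Neither pair of groups overlapped. Of the 51 V segments tested, 3 had every rsCBE sample below every WT sample, these 2 members among them, and 1 had every rsCBE sample above. The log2 odds ratio of J4 was -2.08 ± 0.38 in Igkv8-34 (SE, adjusted p 0.00669 by limma) and -2.09 ± 0.51 in Igkv8-18 (SE, adjusted p 0.0349 by limma). These were the 2 calls among 51 V segments (3.92%), in a test chosen after the data were seen. With the replicate block the adjusted p by limma was 0.0593 and 0.110. With the library form as a term Igkv8-34 passed (adjusted p 0.0106 by limma) and Igkv8-18 did not (0.0542). In the 1-library samples alone the log2 odds ratio of Igkv8-18 was -0.94 (adjusted p 0.429 by limma) and that of Igkv8-34 -1.60 (0.0479), and in the 2-part samples they were -2.85 and -2.40 (adjusted p 0.0654 for both). Igkv8-34 passed in each of the 10 fits that left out 1 sample, and Igkv8-18 did not pass without WT replicate 3, 4 or 5 or without rsCBE replicate 2 or 4. In all V segments other than the 8 members J4 took 15.1% ± 1.65 in WT and 15.2% ± 1.16 in rsCBE (5 samples each, ± SD).

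**Figure D4:**
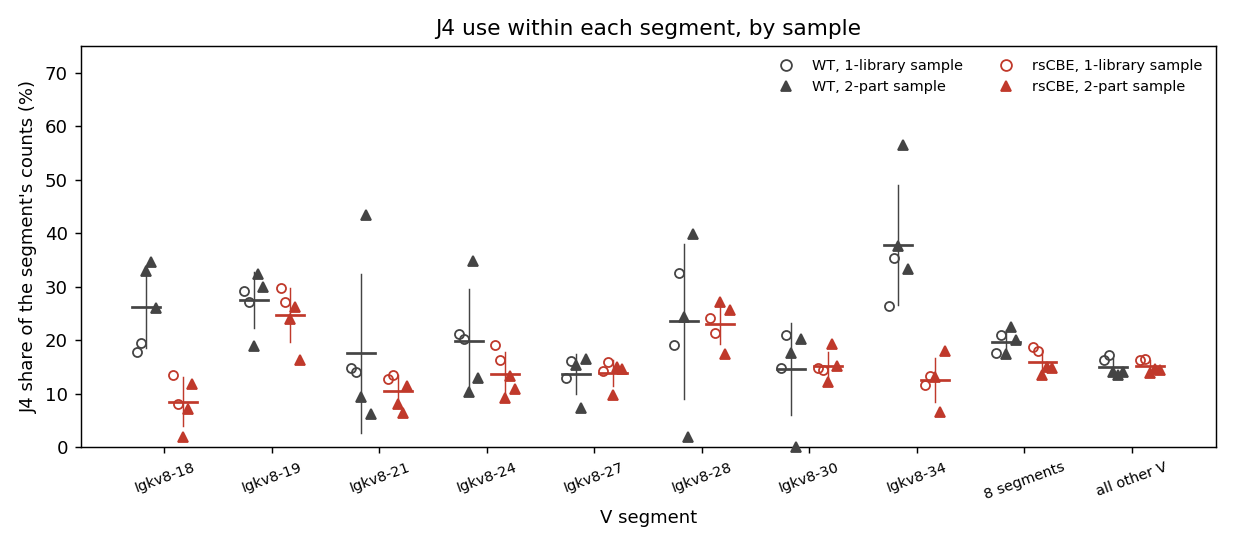
J4 share (%) of the counts of each segment, of the 8 segments together and of all other V segments, with the same symbols as in the plot of J5 shares. The WT samples of Igkv8-34 lie between 26.5 and 56.5% and the rsCBE samples between 6.58 and 17.9%, while Igkv8-27 has means of 13.7 and 13.9%.

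With all samples, both parts and full counts, and without weights, J1 and J2 gave no call. Some other settings, listed at the end, gave calls. For J1, 0 of 51 V segments passed (0%) by limma, and 12 had an unadjusted p under 0.05, all lower in rsCBE. Among the members 6 of 8 estimates were lower, and Igkv8-34 had the smallest p (log2 odds ratio -1.49, adjusted p 0.124 by limma). With weights by counting error 17 of 51 passed for J1, of the members Igkv8-27 (-0.75, adjusted p 0.0126 by limma). Igkv8-30 used J2 for 20.2 to 52.2% of its counts in WT and 10.1 to 21.2% in rsCBE (log2 odds ratio -1.25, adjusted p 0.176 by limma), and with weights by counting error it was the 1 member among 8 segments that passed for J2 (-0.84, adjusted p 0.0421 by limma). Igkv8-21 used J2 for 3.77 to 26.3% in WT and 12.7 to 57.6% in rsCBE, where the highest value is that of replicate 4 with the single joint given above.

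As shares of the whole repertoire, V-J pairs were tested next. Of 270 pairs tested, 0 passed in edgeR, 25 (9.26%) had an unadjusted p under 0.05, and DESeq2 called 3. Of the members' 28 tested pairs, 10 had an unadjusted p under 0.05. Those higher in rsCBE were Igkv8-34 J5 (log2 fold change 1.47), Igkv8-21 J2 (1.40), Igkv8-18 J5 (1.13), Igkv8-19 J5 (0.97), Igkv8-21 J5 (0.74), Igkv8-27 J5 (0.67) and Igkv8-24 J5 (0.61). The value of Igkv8-21 J2 rests on rsCBE replicate 4, with its single joint of 239 counts, and was 0.49 without that sample and 0.11 in the 1-library samples alone. Those lower were Igkv8-34 J4 (-1.55), Igkv8-18 J4 (-1.42) and Igkv8-30 J2 (-0.93). Their adjusted p by edgeR was 0.459 to 0.462. Pairs with J5 made up 6 of the 7 higher ones, and over all V segments 11 of 83 tested J5 pairs (13.3%) had an unadjusted p under 0.05 and were higher in rsCBE. Igkv8-27 J5 passed in DESeq2 (log2 fold change 0.66, adjusted p 0.00763) and in edgeR with the library form as a term (adjusted p 0.0266). In the 1-library samples alone 35 of 285 pairs passed in edgeR, 7 of them of members. These 7 were Igkv8-27 J1 and the J5 pairs of Igkv8-19, Igkv8-21, Igkv8-24, Igkv8-27, Igkv8-28 and Igkv8-30. In the 2-part samples alone 0 of 260 passed.

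Reading frame was examined next, because a joint that keeps the frame and has no stop can give a light chain. Over the 8 members in-frame joints made up 71.8% ± 3.83 of counts in WT and 65.5% ± 4.63 in rsCBE, close to all other V segments at 70.5% ± 4.19 and 65.2% ± 3.21 (5 samples each, ± SD). The members differed far more from each other. Igkv8-18, with the longest germline end, was in-frame in 49.8% ± 17 of counts in WT and 48.4% ± 4.73 in rsCBE, among the lowest of the 51 V segments. Igkv8-27, with the shortest end, was in-frame in 79.7% ± 3.81 and 69.8% ± 5.16.

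Igkv8-19 had the clearest difference in frame. In-frame joints made up 73.1, 78.1, 78.3, 77.9 and 79.2% of its counts in WT and 69.4, 68.0, 68.8, 72.4 and 58.4% in rsCBE, without overlap. It was the 1 V segment of 51 with every rsCBE sample below every WT sample, and 0 had them all above. The log2 odds ratio was -0.71 ± 0.26 (SE, unadjusted p 0.0166, adjusted p 0.169 by limma). Igkv8-27 came next with -0.76 ± 0.29 (SE, unadjusted p 0.0215, adjusted p 0.182 by limma). By limma 0 of 51 V segments passed (0%), and 7 had an unadjusted p under 0.05. With weights by counting error 5 passed, Igkv8-27 among them (-0.71, adjusted p 0.0221 by limma). Igkv8-27 passed in 2 of 12 settings other than leaving out 1 sample, with a lowest adjusted p of 0.00281 by limma.

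**Figure D5:**
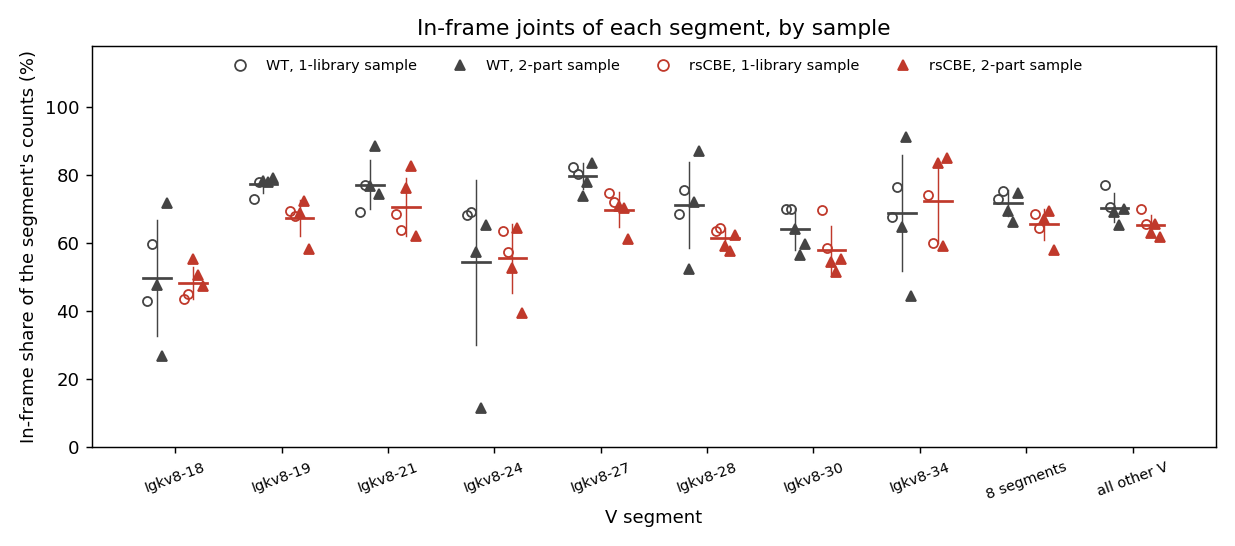
In-frame share (%) of the counts of each segment, of the 8 segments together and of all other V segments, with the same symbols as in the plot of J5 shares. All 5 rsCBE samples of Igkv8-19 lie below its WT samples, and WT replicate 4 of Igkv8-24 stands apart at 11.6%.

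The higher J5 share was seen in joints of either frame. In counts that were not in-frame, J5 joined 38.1% ± 10.5 of the members' counts in WT and 54.0% ± 1.91 in rsCBE (5 samples each, ± SD), and in in-frame counts 32.7% ± 4.23 and 41.8% ± 3.53. For Igkv8-34 the in-frame values were 34.8, 51.3, 60, 0 and 33.3% in WT and 71.9, 69.4, 73.7, 75.6 and 64.9% in rsCBE, without overlap. For Igkv8-21, where the J5 share of all joints overlapped, that of joints not in-frame did not: 14.6, 24.7, 37.1, 33.3 and 30.6% in WT and 44.3, 48.3, 59.3, 45.1 and 51.6% in rsCBE. Both cases were picked from all members and both frames, and how many V segments separate in either frame was not counted. WT replicate 4 held 23 Igkv8-34 and 53 Igkv8-21 counts over both frames. These comparisons by frame were not tested.

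CDR3 length followed the germline ends and hardly moved with the genotype. Igkv8-27 and Igkv8-21 had the shortest mean CDR3 of the 51 V segments, 23.5 and 23.7 nucleotides in WT and 23.2 and 23.9 in rsCBE, and Igkv8-18 the longest, 33.7 and 33.6. Of in-frame counts, 90.3% had 8 codons in Igkv8-27 and 82.7% had 11 codons in Igkv8-18 in WT, while the members with a germline part of 23 bases mostly had 9. By limma 0 of 51 V segments differed between the genotypes in mean CDR3 length, with 3 at an unadjusted p under 0.05. Of these Igkv8-28 was shorter by 0.504 nucleotides (adjusted p 0.297 by limma), with WT samples of 26.8 to 27.4 and rsCBE samples of 26.2 to 26.7. Igkv8-27 was shorter by 0.308 (adjusted p 0.441 by limma). In part b alone 3 V segments passed for CDR3 length.

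The leading joint of each member, the CDR3 with the highest mean share of its counts over the 10 samples of both genotypes, is shown to give the letters that meet at the joint. V bases are in lower case and the bases that do not match the germline V end are in capitals.
Igkv8-18: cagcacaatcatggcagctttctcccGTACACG
Igkv8-19: cagaatgattatagttatccATTCACG
Igkv8-21: aagcaatcttataatctGCTCACG
Igkv8-24: cagcaacattatagcactccGCTCACG
Igkv8-27: catcaatacctctcctcgCTCACG
Igkv8-28: cagaatgatcatagttatccGCTCACG
Igkv8-30: cagcaatattatagctatccGTACACG
Igkv8-34: cagcagtcctacagcgctccGCTCACG
Each can be read as a V end and a J end with no other base. The ranking joins genotypes that differ in J use, and another joint had the higher mean in one of them for some members. In rsCBE a J5 joint was above the one shown in Igkv8-18 (9.71 against 6.81%), Igkv8-19 (17.4 against 14.1%) and Igkv8-30 (9.60 against 6.67%), and in WT a J4 joint was above it in Igkv8-34 (15.2 against 11.6%). In Igkv8-28 a J2 joint and the joint shown had nearly equal means in rsCBE, 14.33 and 14.28%. These differences between joints were not tested. In Igkv8-27 the leading J5 joint holds every letter of the germline V end, whose last base is also the first base of J5, so which end gave it cannot be told apart. The joint made up 16.3, 18.4, 19.2, 13.4 and 21.3% of Igkv8-27 counts in WT and 26.0, 22.3, 26.1, 22.2 and 25.6% in rsCBE, without overlap. In Igkv8-34 the leading joint, also with J5, made up 11.8, 15.7, 27.1, 0 and 3.70% in WT and 22.1, 20, 41.8, 17.1 and 38.8% in rsCBE, with overlap through WT replicate 3. In Igkv8-30 the leading J2 joint made up 10.8, 12.7, 23.0, 34.8 and 6.14% in WT and 9.63, 9.29, 3.03, 7.02 and 4.4% in rsCBE, with overlap through WT replicate 5.

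Trimming was examined in counts with at most 8 germline V bases missing, with bases that could come from either end assigned to V. Over the 8 members 2.04 ± 0.119 germline V bases were missing on average in WT and 2.07 ± 0.00896 in rsCBE, and no base was added in 85.6% ± 1.44 and 83.9% ± 4.85 of counts (5 samples each, ± SD). The letters of the whole germline V end were present in 69.0% ± 9.16 of Igkv8-27 counts in WT, 41.2% ± 13.7 of Igkv8-18 counts and 5.54% ± 3.69 of Igkv8-24 counts (5 samples each, ± SD). In rsCBE replicate 4, 45.5% of Igkv8-21 counts had no base added, against 88.1 to 94.3% in the other rsCBE samples, and the joint with 239 counts is among those with added bases. The members had 2803 distinct joints over the 10 samples. Of these, 74.4% were found in 1 sample, and 21 were found in all 10 samples and held 33.2% of the counts.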

How the data were processed

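The deposited table lists Igk joints of 10 samples by V, J and CDR3, with raw counts made by the authors, in 49079 lines from 16 libraries. The labels' protocols give sorted cells, column-purified RNA and paired reads of 151 bases. The submitters' processing notes name mm10. The caller, the treatment of ambiguous reads and whether a count is a read or a molecule are not given in the sources used here. Intervals and limits from 0 counts (Wilson, 95%, 3 counts) therefore cover counting error only.

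Here 49 duplicate lines and the alleles of a segment were merged, and parts a and b of a sample were added. V and V-J usage were tested with edgeR 4.0.16 (quasi-likelihood, library size equal to the total count), with DESeq2 1.42.0 as an alternative. J, in-frame and CDR3 length values within a segment were tested with limma 3.58.1 in R 4.3.3 on log2 odds with 0.5 added to both counts, in segments with at least 20 counts in every sample. P-values were adjusted by Benjamini-Hochberg over all segments, at 0.05. Scripts were tested on simulated data. In-frame means a CDR3 length that is a multiple of 3 without a stop. No pair of samples of one genotype agreed within sampling noise (lowest chi-square per degree of freedom 2.22 over 20 pairs).

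The replicate numbers, from the labels, were taken as pairs for the block. The deviations of same-numbered samples correlated at 0.800, 0.797, 0.595, 0.114 and 0.403 over 98 V segments. They were taken from the genotype means, so differences between the library forms enter these correlations. The pairing is loose: 4 of 10 samples correlated best with their own number in the other genotype, replicate 3 was the one pair in which both did, and every best match lay within the same library form. The members and lists were chosen with earlier results of these data known. All 8 members, V-J pairs of members with an unadjusted p under 0.05, the 2 neighbours of smallest p, the 3 most similar V segments and the leading joint of each member are named. The J2 and J4 tests, the weights, the tests of whether the genotype effect differs between library forms and the removal of the largest clonotype were chosen after seeing the data. Germline sequences and coordinates are from GENCODE M21. Another mutant of the series was not analysed here.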

Additional observations from a re-analysis of the deposited data

Results flagged for a closer look

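In 5 of 66 groups of 5 samples 1 value stood apart by Dixon's test at 0.71, where chance gives 3.3 (1 in 20). Igkv8-19 took 1.37% of counts in WT replicate 1, while the remaining WT samples ran from 2.17 to 2.27%. The summed share of the 8 segments was 13.1% in rsCBE replicate 5 against 14.3 to 14.7% in the other rsCBE samples. J1 joined 19.1% of Igkv8-19 counts in WT replicate 4 (13 of 68, Wilson 95% interval 11.5 to 30.01%) while the remaining WT samples ran from 1.93 to 6.67%. In-frame joints made up 73.1% of Igkv8-19 counts in WT replicate 1 against 77.9 to 79.2%. In-frame joints made up 11.6% of 43 Igkv8-24 counts in WT replicate 4 against 57.4 to 69.2% in the other WT samples.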

How the results depend on the processing

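The number of V segments or pairs past the threshold depended on the settings, and the cause was not tested. With the library form as a term it was 2 for V usage, 7 for V-J pairs, 0 for J5 and 1 for J4. With the replicate block it was 1 for V usage (0 without it), 0 for J5 and 0 for J4. DESeq2 called 3 V-J pairs. The 1-library samples alone gave 35 V-J pairs and 68 of 85 segments for J5, and the 2-part samples alone gave 0 for J5 and 0 for J4. Part a alone gave 0 for J5 and 0 for J4. Part b alone gave 2 for J1, 2 for J2, 0 for J4 and 3 for CDR3 length. The exact permutation test gave 0 for J5 and 0 for J4, which says nothing about stability, since its smallest p of 0.00794 could not pass with 8 and 4 of 51 segments at it. Counting each clonotype once left 6 segments to test and gave 0 for J5, 2 for J1, 2 for in-frame share and 0 for J4. Without clonotypes of 1 count it was 8 for J5 and 1 for in-frame share. Weights by counting error gave 33 for J5, 17 for J1, 8 for J2 and 5 for in-frame share. Leaving out 1 sample gave 0 to 30 for J5, 0 to 1 for J1, 0 to 1 for J2 and 1 to 2 for J4. The difference in summed share was 1.27 points with each clonotype counted once. Estimates that changed sign were V usage of Igkv8-28 (-0.0306 in part b alone, -0.11 in the 2-part samples, -0.11 to 0.24 leaving out 1 sample), Igkv8-30 (-0.18 to 0.044) and Igkv8-34 (-0.072 to 0.43). The J5 log2 odds ratio of Igkv8-21 was -0.16 in the 2-part samples. That of Igkv8-28 was 0.97 in the 1-library samples, 0.76 with weights and -0.95 to 0.62 leaving out 1 sample. The effect of genotype differed between the library forms in 0 of 103 V segments for usage by edgeR (0 at an unadjusted p under 0.05) and in 0 of 51 for J5 by limma (1 unadjusted). Depth limits WT replicate 4 most, where members have 23 to 82 counts.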
